A study of Mus musculus with 13 samples.

Results

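The NRF2, glutathione and antioxidant genes described here are 38 genes that were listed by name: the transcription factor NRF2 and its inhibitor, the redox and detoxification enzymes that NRF2 is known to induce, the enzymes that make, recycle and use glutathione, and the transporters that export glutathione conjugates. They were found by gene name among 27670 names on the array, through 59 probes. Of the 38 members, 37 passed the filter on dim probes, which asked that the scanner software call the probe well above background on at least 3 arrays, and these 37 are among 20392 genes tested. All 37 were in fact well above background on all 13 arrays. The other member, Slc7a11, the cystine carrier that supplies the cell with the limiting amino acid of glutathione, was not tested: its 4 probes were well above background on 0, 1, 0 and 0 of 13 arrays.

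Liver RNA was measured in male mice of the C57BL/6 background after 5 months on a western-type diet rich in fat. TAKI mice (n = 5) carry a knock-in allele of SIRT1, a NAD-dependent deacetylase, in which alanine replaces the threonine whose phosphorylation the study is about, TEKI mice (n = 3) carry glutamate there, and WT mice (n = 5) carry wild-type SIRT1. The labels do not give the age, the number of mutant alleles per mouse or the litter, no mice on another diet were analysed here, and since every array read a different mouse the spread below is between animals. A level is the log2 intensity of a gene's brightest probe after subtraction of the log2 75th percentile of its array, and a difference is between mean levels of 2 genotypes, so that 1 unit is a doubling. Values per liver follow the replicate order of the labels.

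NRF2, encoded by Nfe2l2, is a basic leucine zipper factor that KEAP1 holds in the cytoplasm and hands to a ubiquitin ligase for degradation. Electrophiles and oxidants modify cysteines of KEAP1, NRF2 then accumulates in the nucleus, pairs with small MAF proteins and binds antioxidant response elements, and genes such as Nqo1, Gclc and the glutathione transferases are transcribed. Since the factor is controlled mostly at the protein level, its own transcript is a poor guide to its activity, and target transcripts such as Nqo1 are the usual readout.

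Across the series, 575 genes (2.82% of those tested) passed an adjusted p of 0.05 for TAKI minus WT, 1 gene (0.0049%) for TEKI minus WT and 704 genes (3.45%) for TEKI minus TAKI, by limma with Benjamini-Hochberg adjustment over all genes. The arrays lay on 5 slides. TAKI arrays had slides to themselves, so in comparisons with TAKI the slide cannot be told apart from the genotype, and 1 WT array shared its slide with the 3 TEKI arrays. The array of TEKI liver 1 stood apart, with 86.8% of its spots well above background and 87 non-uniform spots, against 60.5% to 73.1% of spots and at most 6 non-uniform spots on the other 12 arrays. Hepatocyte markers were detected above background on all 13 arrays (9 of 9 tested), with mean levels between 7.08 and 7.48 in TAKI livers, 7.17 and 7.69 in TEKI livers and 7.14 and 7.54 in WT livers. Among the lymphocyte markers, Cd2 was called higher for TAKI minus WT, by 1.05 with an adjusted p of 0.0031 in limma. The log2 summed level of the 6 lymphocyte markers ran between 1.83 and 2.10 in TAKI livers, 1.52 and 2.17 in TEKI livers and 1.48 and 1.76 in WT livers. The 5 pancreatic acinar markers tested had a median difference of 1.31 for TEKI minus WT. Of them 3 (Cel, Prss2 and Cpa1) had an unadjusted p under 0.05 in limma and none passed the adjusted threshold. Their log2 summed level ran between -0.60 and 0.16 in TAKI livers, 0.049 and 0.54 in TEKI livers and -1.21 and 0.14 in WT livers. Part of these markers were dim: Pnlip (the median), Cpa1 and Prss2 were well above background on 3, 4 and 10 arrays. Cel and Ctrb1 were so on all 13. TEKI liver 1, on the array that stood apart, was the highest of the 13 for Cel, Prss2 and Pnlip. TEKI liver 3 was so for Cpa1 and Ctrb1. The part of the lymphocyte and acinar markers in the differences of the members was not tested. In RNA of whole liver, fewer cells of a type and less RNA per cell cannot be told apart.

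None of the 37 members tested passed the adjusted threshold in any of the 3 comparisons. For TAKI minus WT, 1 member lay higher and 1 lower at an unadjusted p under 0.05, which is 5.41% of the members, against 14.7% of all genes (9.38% higher, 5.30% lower). For TEKI minus WT these were 2 higher and 1 lower, or 8.11%, against 11.6% of all genes (10.2% higher, 1.44% lower). For TEKI minus TAKI they were 2 higher and none lower, or 5.41%, against 12.1% of all genes (8.26% higher, 3.81% lower). Each of these shares rests on only 2 or 3 members, and none was tested against that of all genes. The members are also brighter than most genes: 23 of 37 lay in the top 10% by level, so the shares compare unlike genes. With levels scaled as above, the data also bound the differences. The 95% confidence interval lay within 1 unit either side of zero for 36 of 37 members in TAKI minus WT. It did so for 33 in TEKI minus WT and for 33 in TEKI minus TAKI. The standard errors had medians of 0.14, 0.17 and 0.17. Gsta2 was the member outside this bound in all 3 comparisons. In comparisons with TAKI the bound covers genotype and slide together. For TEKI minus WT it mixes them in part, because only 1 WT array shared the slide of the 3 TEKI arrays. The bound also depends on the scaling. With median scaling the median difference of the members moved to -0.22, -0.47 and -0.19 in the same order. Intervals were not counted against the bound there.

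**Figure D1:**
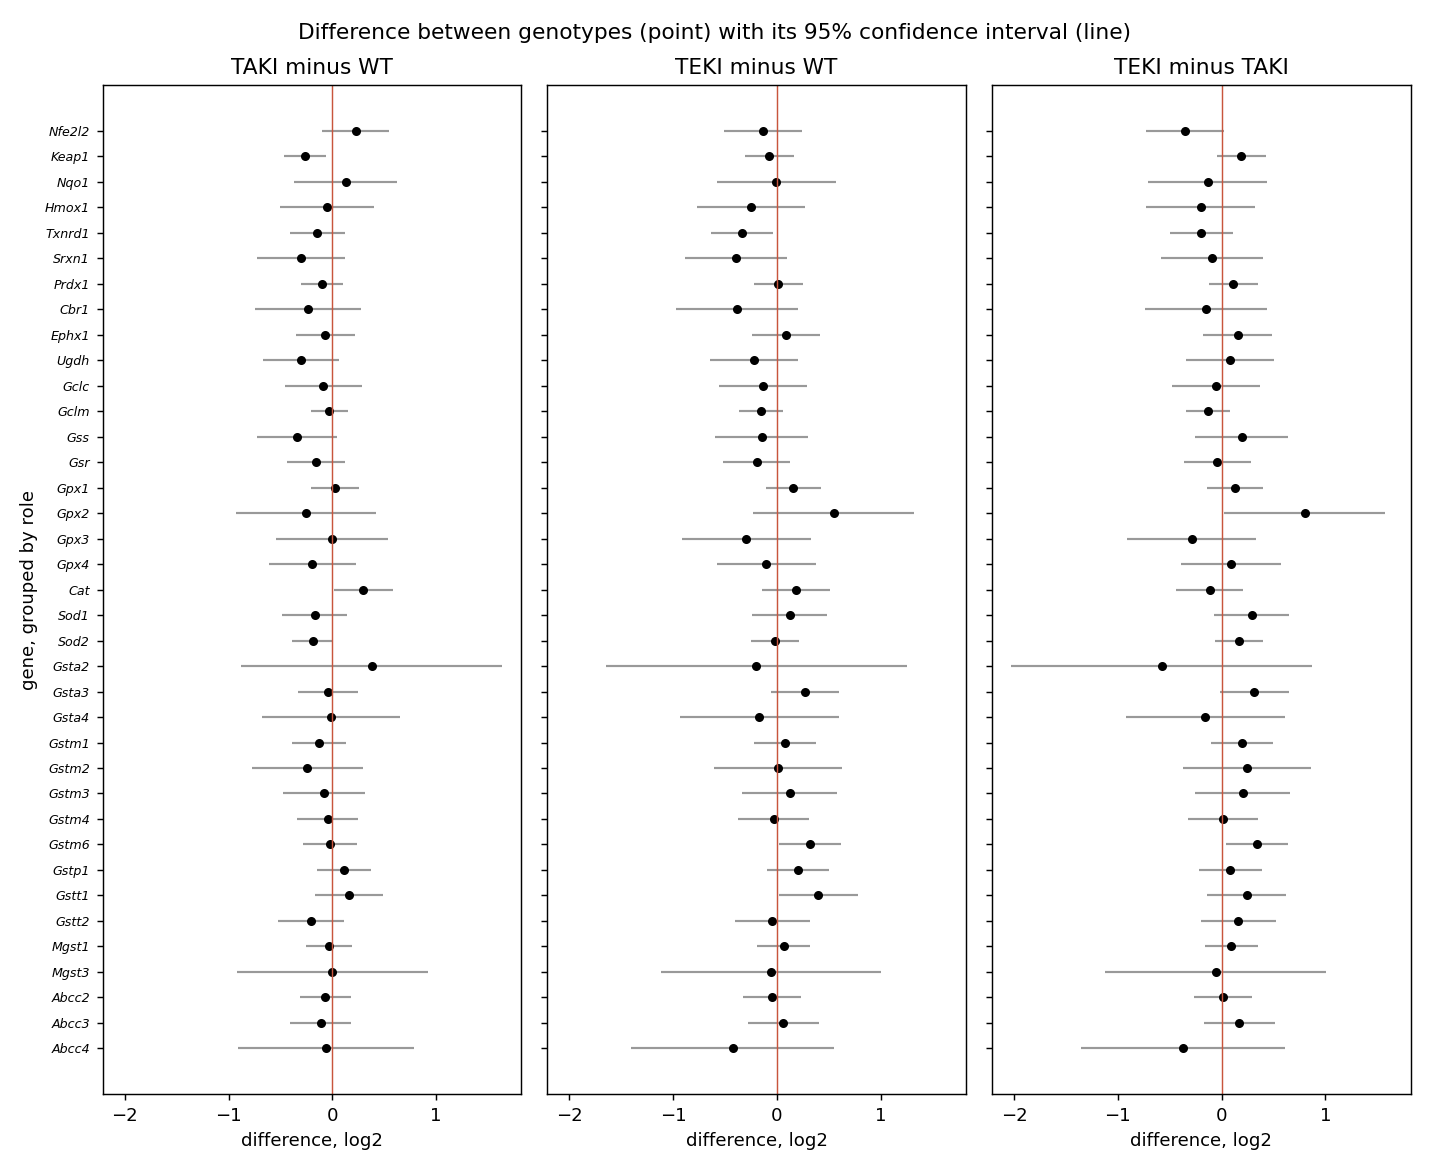
Difference between genotypes in log2 units for the 37 members tested, grouped by role from top to bottom, for TAKI minus WT (left), TEKI minus WT (middle) and TEKI minus TAKI (right). Points are limma estimates and lines their 95% confidence intervals without adjustment for the number of genes. Estimates lie within 0.5 of zero for 37, 36 and 35 of 37 members, and the intervals of Gsta2, Mgst3 and Abcc4 are the widest.

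The median difference of the 37 members was -0.07 for TAKI minus WT, -0.05 for TEKI minus WT and 0.09 for TEKI minus TAKI, while the median of all genes tested was 0.0022, 0.07 and 0.06. In TAKI livers 30 of 37 members lay below their WT mean, against 10123 of 20392 genes, yet this count was 21 with quantile normalization and 21 with normexp background correction. With normexp the median of all genes was -0.089 for TAKI minus WT, and 22 members lay above it. For TEKI minus WT and TEKI minus TAKI, 28 and 27 members lay below the normexp median of all genes. With the main scaling 7650 and 8039 of 20392 genes lay below zero in these 2 comparisons. In TEKI livers 22 of 37 lay below their WT mean (22 with quantile normalization, 24 with normexp) and 15 below their TAKI mean (20 and 19), and median scaling, which shifts all genes downward, put 33, 36 and 33 members below in the 3 comparisons. The TAKI and TEKI comparisons with WT share the same 5 WT livers. On slide 3 alone, with 3 TEKI arrays and 1 WT array, the TEKI minus WT difference had the opposite sign for 13 of the 22 members that are given below by liver.

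Among the regulators, the Nfe2l2 transcript was at 4.12, 4.08, 3.98, 4.23 and 4.22 in TAKI livers, 3.94, 3.93 and 3.44 in TEKI livers, and 3.84, 4.40, 3.87, 3.78 and 3.63 in WT livers. The 5 TAKI livers all lay above the 3 TEKI livers, WT livers overlapped both, WT liver 2 was the highest of all 13 and TEKI liver 3 the lowest. The TEKI minus TAKI difference of Nfe2l2 was -0.36 (SE 0.17), with an unadjusted p of 0.061 and an adjusted p of 0.453 in limma, and 2.74% of all genes had every TEKI liver below every TAKI liver. Against WT, the Nfe2l2 difference was 0.22 (SE 0.15) for TAKI and -0.13 (SE 0.17) for TEKI, which on slide 3 alone was 0.14. The 3 other detected probes of Nfe2l2 gave -0.20, 0.092 and 0.0035 for TAKI minus WT and -0.33, -0.35 and -0.17 for TEKI minus TAKI.

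Keap1, the adaptor that targets NRF2 for degradation, was at 4.04, 3.94, 3.94, 3.82 and 3.95 in TAKI livers, 4.11, 3.96 and 4.31 in TEKI livers, and 4.08, 4.13, 4.28, 4.40 and 4.11 in WT livers. Each TAKI liver lay below each WT liver, the one member for which groups did not overlap in that comparison, against 1.86% of all genes lower without overlap. No member had groups without overlap for TEKI minus WT, against 3.93% of all genes. The difference was -0.26 (SE 0.093), with an unadjusted p of 0.0163 and an adjusted p of 0.195 in limma. TEKI livers overlapped both other genotypes, with -0.073 (SE 0.11) for TEKI minus WT.

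Nqo1 encodes the quinone reductase most often read as the reporter of NRF2. Its levels were 0.75, 1.36, 0.69, 1.80 and 1.55 in TAKI livers, 1.09, 1.25 and 0.94 in TEKI livers, and 0.59, 1.35, 1.11, 1.39 and 1.06 in WT livers. The genotypes overlapped, with TAKI livers 1 and 3 and WT liver 1 lowest and TAKI livers 4 and 5 above every TEKI and WT liver. The TAKI minus WT difference of Nqo1 was 0.13 (SE 0.23), with a 95% confidence interval of -0.37 to 0.63. For TEKI minus WT it was -0.0042 (SE 0.26), with an interval of -0.58 to 0.57, so a doubling lies outside both intervals.

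**Figure D2:**
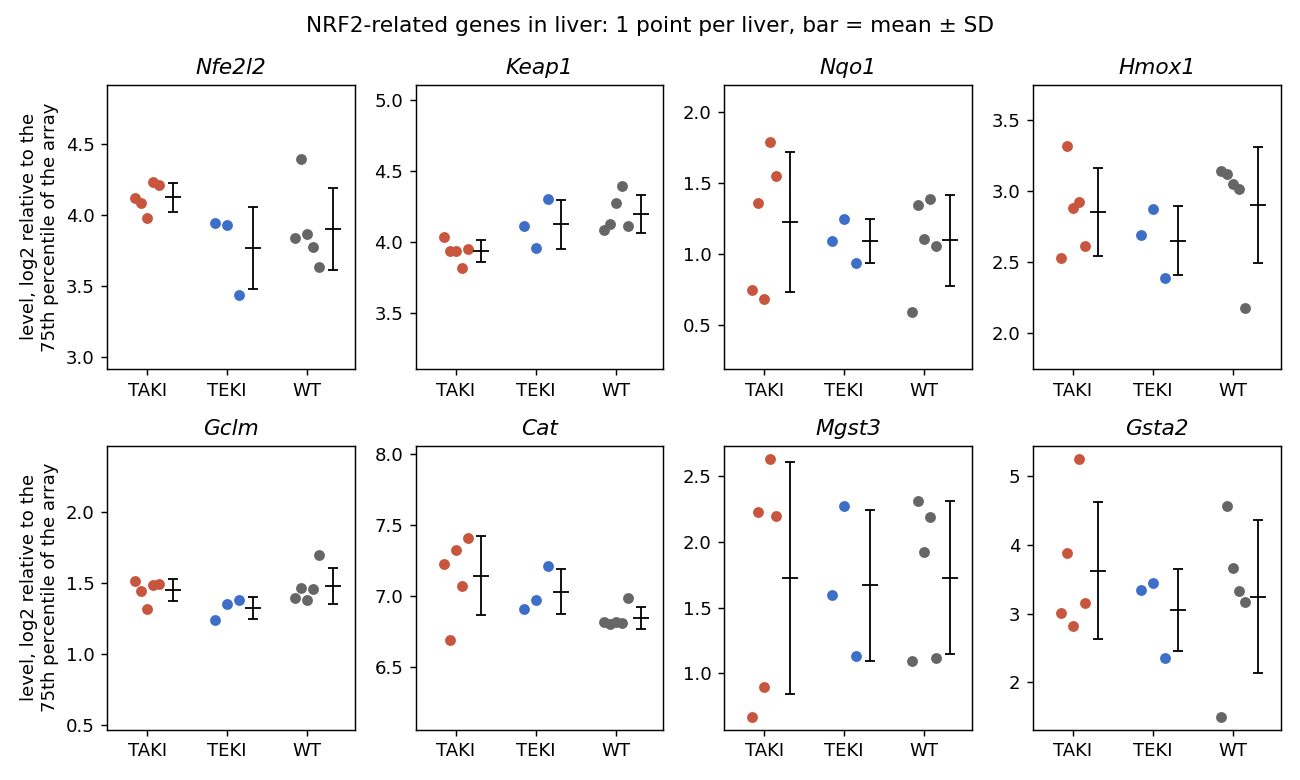
Levels of 8 members in each liver, in log2 units above the array's 75th percentile, for TAKI (red, n = 5), TEKI (blue, n = 3) and WT (grey, n = 5). Each point is 1 liver and each bar a mean with its SD. TAKI and WT points separate for Keap1 alone among the 8, and the points of Mgst3 and Gsta2 spread most within a genotype.

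Hmox1, which cleaves haem into biliverdin, iron and carbon monoxide and is induced by NRF2 and by loss of the repressor BACH1, was at 2.53, 3.31, 2.88, 2.92 and 2.61 in TAKI livers, 2.69, 2.87 and 2.39 in TEKI livers, and 3.14, 3.12, 3.05, 3.02 and 2.18 in WT livers. WT liver 5 was the lowest of the 13, and the other 4 WT livers lay between 3.02 and 3.14. The difference was -0.049 (SE 0.21) for TAKI minus WT and -0.25 (SE 0.24) for TEKI minus WT, which turned to 0.47 on slide 3 alone. Txnrd1, the cytosolic thioredoxin reductase, was at 4.46, 4.53, 4.54, 4.88 and 4.76 in TAKI livers, 4.37, 4.42 and 4.53 in TEKI livers, and 4.49, 5.00, 4.95, 4.80 and 4.65 in WT livers. TEKI livers 1 and 2 lay below every other liver, and TEKI liver 3 lay among the lower TAKI and WT livers. The TEKI minus WT difference of Txnrd1 was -0.34 (SE 0.14), with an unadjusted p of 0.0324 and an adjusted p of 0.408 in limma, and -0.21 on slide 3 alone.

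Srxn1 encodes sulfiredoxin, which restores over-oxidised peroxiredoxins. It was at 4.22, 4.76, 4.23, 4.79 and 4.46 in TAKI livers, 4.38, 4.53 and 4.28 in TEKI livers, and 4.55, 4.99, 5.14, 5.11 and 4.18 in WT livers. WT livers 2, 3 and 4 exceeded all others, while WT liver 5 was the lowest. The differences were -0.30 (SE 0.20) for TAKI minus WT and -0.40 (SE 0.23) for TEKI minus WT, with adjusted p values of 0.55 and 0.507 in limma, and TEKI minus WT turned to 0.22 on slide 3 alone. Cbr1, a carbonyl reductase that uses NADPH, was at 4.02, 4.49, 3.81, 4.51 and 4.38 in TAKI livers, 3.89, 4.58 and 3.82 in TEKI livers, and 3.87, 4.51, 4.64, 5.06 and 4.30 in WT livers. The genotypes overlapped, with WT liver 4 highest and TAKI liver 3 and TEKI liver 3 lowest, and Cbr1 differed by -0.23 (SE 0.23) for TAKI minus WT and -0.38 (SE 0.27) for TEKI minus WT. Ugdh, which makes the glucuronic acid donor for conjugation, was at 4.89, 5.08, 4.62, 5.34 and 5.08 in TAKI livers, 5.08, 4.88 and 5.29 in TEKI livers, and 4.91, 5.62, 5.49, 5.44 and 5.07 in WT livers. WT livers 2, 3 and 4 exceeded all others and TAKI liver 3 was the lowest, with -0.30 (SE 0.17) for TAKI minus WT and an adjusted p of 0.462 in limma. The other members of this role, Ephx1 (microsomal epoxide hydrolase) and Prdx1 (a peroxiredoxin), differed by -0.067 and -0.10 for TAKI minus WT.

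In glutathione synthesis, Gclc encodes the catalytic subunit of the rate-limiting ligase. Its levels were 5.31, 5.49, 5.03, 5.59 and 5.43 in TAKI livers, 5.42, 5.27 and 5.26 in TEKI livers, and 5.32, 5.73, 5.47, 5.84 and 4.92 in WT livers. The TAKI and TEKI values fell inside the WT range, which ran between liver 5 and liver 4, and Gclc differed by -0.086 (SE 0.17) for TAKI minus WT and -0.14 (SE 0.19) for TEKI minus WT, which turned to 0.40 on slide 3 alone. Gclm, the modifier subunit of the same enzyme, was at 1.52, 1.45, 1.32, 1.49 and 1.50 in TAKI livers, 1.24, 1.35 and 1.38 in TEKI livers, and 1.40, 1.47, 1.38, 1.46 and 1.70 in WT livers. The 13 livers spanned 0.46, and its within-genotype SD of 0.10 stood at the 3.26th percentile of all genes tested, so this member was among the steadiest transcripts on the array. The Gclm difference was -0.028 (SE 0.083) for TAKI minus WT and -0.16 (SE 0.096) for TEKI minus WT, and the second was -0.37 on slide 3 alone.

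Gss, which adds glycine to complete glutathione, was at 3.80, 4.06, 3.18, 3.55 and 3.37 in TAKI livers, 3.55, 3.82 and 3.99 in TEKI livers, and 3.60, 4.03, 4.23, 4.02 and 3.78 in WT livers. TAKI livers 3, 4 and 5 and TEKI liver 1 were below every WT liver, and TAKI liver 2 was above all WT livers but 1. The TAKI minus WT difference was -0.34 (SE 0.18), with an unadjusted p of 0.0791 and an adjusted p of 0.419 in limma. Gsr, the reductase that regenerates reduced glutathione, differed by -0.15 (SE 0.13) for TAKI minus WT and -0.19 (SE 0.15) for TEKI minus WT. Its 2 other probes gave 0.10 and 0.085 for TAKI minus WT, the opposite sign, and -0.13 and -0.27 for TEKI minus WT.

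Of the peroxidases and dismutases, Cat encodes the peroxisomal catalase. It was at 7.23, 6.69, 7.32, 7.07 and 7.41 in TAKI livers, 6.91, 6.97 and 7.21 in TEKI livers, and 6.82, 6.80, 6.82, 6.81 and 6.99 in WT livers. WT livers 1 to 4 lay between 6.80 and 6.82, 4 of 5 TAKI livers were above all WT livers, and TAKI liver 2 was the lowest of the 13. The difference was 0.30 (SE 0.13), with an unadjusted p of 0.0404 and an adjusted p of 0.308 in limma, and 0.41 with an adjusted p of 0.0678 without TAKI liver 2. With array weights, which give arrays of larger residual spread less influence, the adjusted p in limma was 0.0348 for Cat and 0.0352 for Keap1, and 2311 genes passed. Over 26 alternatives the Cat difference ran between 0.15 and 0.41, with adjusted p values between 0.035 and 0.81 in limma. That of Keap1 ran between -0.41 and -0.21, with adjusted p values between 0.035 and 0.50 in limma.

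Gpx2, a selenium peroxidase known mainly from the gut epithelium, was at -4.15, -3.32, -2.88, -2.76 and -3.23 in TAKI livers, -1.95, -2.59 and -2.87 in TEKI livers, and -3.10, -2.79, -3.62, -3.29 and -2.28 in WT livers. TEKI liver 1, on the array that stood apart, was the highest of the 13, and TAKI liver 1 the lowest. For TEKI minus TAKI the difference was 0.80 (SE 0.35), with an unadjusted p of 0.0438 and an adjusted p of 0.391 in limma, and 0.54 with an adjusted p of 0.726 without TEKI liver 1. For TEKI minus WT it was 0.55 (SE 0.35), and -0.19 on slide 3 alone. With normexp background correction Gpx2 passed for TEKI minus TAKI, at 0.72 and an adjusted p of 0.0144 in limma, where 4187 genes passed, 4017 of them higher. The remaining 5 members of this role, Gpx1, Gpx3, Gpx4, Sod1 and Sod2, differed by -0.19 to 0.03 for TAKI minus WT and by -0.29 to 0.16 for TEKI minus WT, with adjusted p values of at least 0.375 in limma.

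The 13 glutathione transferases join glutathione to electrophiles. None passed, and their differences ran between -0.24 and 0.38 for TAKI minus WT and between -0.20 and 0.40 for TEKI minus WT. Gsta3, an abundant alpha-class enzyme of mouse liver, was at 8.27, 8.04, 8.0, 8.21 and 8.16 in TAKI livers, 8.57, 8.33 and 8.46 in TEKI livers, and 7.90, 8.0, 8.31, 8.08 and 8.61 in WT livers. All 3 TEKI livers exceeded all 5 TAKI livers, and WT livers ranged from below to above both. Gstm6, of the mu class, was at 2.77, 2.78, 2.30, 2.76 and 2.75 in TAKI livers, 2.88, 3.09 and 3.08 in TEKI livers, and 2.53, 2.57, 2.67, 2.78 and 2.94 in WT livers. Here too the TEKI livers lay above the TAKI livers, and above 4 of the 5 WT livers, and 5.55% of all genes had every TEKI liver above every TAKI liver. Their TEKI minus TAKI differences were 0.31 (SE 0.15) for Gsta3 and 0.34 (SE 0.14) for Gstm6, with adjusted p values of 0.453 and 0.32 in limma. A second Gsta3 probe, with r = 0.84 to the first, gave 0.046 for TEKI minus TAKI, so the larger difference of Gsta3 rests on 1 probe. Against WT, TEKI livers differed by 0.32 (SE 0.14) for Gstm6 and 0.40 (SE 0.17) for Gstt1, of the theta class, with adjusted p values of 0.418 and 0.419. On slide 3 alone, the TEKI minus WT difference was 0.077 for Gstm6 and -0.16 for Gsta3.

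Gsta2, an alpha-class transferase, was the most variable member. Its levels were 3.00, 3.88, 2.82, 5.26 and 3.16 in TAKI livers, 3.34, 3.44 and 2.36 in TEKI livers, and 1.50, 4.57, 3.66, 3.33 and 3.16 in WT livers. WT liver 1 and TAKI liver 4 formed the ends of a 13.6-fold range, and the TEKI livers lay inside it, between 2.36 and 3.44. The within-genotype SD was 0.99, at the 93.4th percentile of all genes, and the TAKI minus WT difference was 0.38 (SE 0.58) with an interval of -0.88 to 1.64. Gsta2 has a near copy, Gsta1, and the probes of the 2 genes share a stretch of nearly identical sequence. The probe sequences are shown because the first 28 bases of the Gsta2 probe overlap the last 28 of the Gsta1 probe, with 27 identical (in capitals), so RNA of either gene may bind both. The Gsta2 probe lies at chr9:78408171-78408230 in mm7, the build named in the file headers, and no position is given here for that of Gsta1.
Gsta2 probe: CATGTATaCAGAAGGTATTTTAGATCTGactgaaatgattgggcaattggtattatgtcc
Gsta1 probe: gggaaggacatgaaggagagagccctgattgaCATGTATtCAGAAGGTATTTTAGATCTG
Signals of both are therefore reported as uncertain between the 2 copies.

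Mgst3, a membrane-bound transferase with peroxidase activity, was at 0.67, 2.23, 0.90, 2.64 and 2.20 in TAKI livers, 1.60, 2.28 and 1.14 in TEKI livers, and 1.10, 2.31, 1.92, 2.19 and 1.12 in WT livers. The lowest and highest of the 13 were both TAKI livers (1 and 4), and the genotype means differed by -0.0011 for TAKI minus WT, beside a within-genotype SD of 0.72. The 2 other detected probes of Mgst3 followed it across livers with r = 0.98 and 0.66. Gsta4, which conjugates lipid-derived 4-hydroxyalkenals, was at 1.17, 1.45, 0.49, 1.92 and 1.06 in TAKI livers, 1.29, 1.17 and 0.73 in TEKI livers, and 0.23, 1.66, 1.54, 1.27 and 1.45 in WT livers. WT liver 1 was the lowest and TAKI liver 4 the highest, as for Gsta2, and TAKI minus WT was -0.012 (SE 0.30). Gstm3 was at 8.38, 8.71, 8.16, 8.97 and 8.57 in TAKI livers, 8.48, 9.13 and 8.68 in TEKI livers, and 8.34, 8.76, 8.80, 8.91 and 8.41 in WT livers, with the genotypes overlapping and -0.084 (SE 0.18) for TAKI minus WT. Gstt2 was at 4.29, 4.34, 4.50, 4.15 and 4.26 in TAKI livers, 4.36, 4.60 and 4.44 in TEKI livers, and 4.21, 4.27, 4.43, 4.65 and 4.99 in WT livers. TAKI liver 4 was the lowest and WT livers 4 and 5 the highest, and TAKI minus WT was -0.21 (SE 0.14).

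Among the efflux transporters, Abcc3 exports conjugates from hepatocytes into blood. Its levels were 5.53, 5.46, 5.85, 5.75 and 5.72 in TAKI livers, 5.69, 5.96 and 5.85 in TEKI livers, and 5.31, 5.75, 5.96, 5.87 and 5.97 in WT livers. The genotypes overlapped, WT liver 1 was the lowest, and TAKI minus WT was -0.11 (SE 0.14). Abcc4, which exports conjugates and bile acids across the same membrane, was at -2.38, -1.17, -1.77, -0.31 and -1.94 in TAKI livers, -1.71, -1.51 and -2.42 in TEKI livers, and -1.79, -0.55, -1.43, -1.42 and -2.09 in WT livers. TAKI liver 4 and WT liver 2 were highest, TEKI liver 3 and TAKI liver 1 lowest, and the within-genotype SD was 0.66. TEKI minus WT was -0.43 (SE 0.45) for Abcc4, with an interval of -1.41 to 0.55, and 0.21 on slide 3 alone. TAKI minus WT was -0.059 (SE 0.39). A dimmer probe of Abcc4, well above background on 6 arrays, had the opposite sign in both, with 0.24 and 0.82. Abcc2, the canalicular exporter, differed by -0.067 (SE 0.11) for TAKI minus WT and -0.049 (SE 0.13) for TEKI minus WT.

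Animals of 1 genotype differed as well, and part of the members differed together. The within-genotype SD of the 37 members had a median of 0.22, against 0.29 over all genes tested, and 13 of 37 lay above that median. The members had a median level at the 92.6th percentile of all genes, and their SDs were not compared with those of equally bright genes. The most variable members were Gsta2, Mgst3, Abcc4, Gpx2 (0.52) and Gsta4 (0.51). To describe this, each genotype's mean was removed from each gene, and the deviations of the 13 livers were correlated with those of Nqo1. The deviation of Nqo1 ran between -0.54 in TAKI liver 3 and 0.57 in TAKI liver 4. Of the 36 other members, 10 (27.8%) had a Pearson r of at least 0.7 with Nqo1, against 1.78% of all genes. This share too was not compared with that of equally bright genes. Of the 10, 4 are redox and detoxification enzymes (Cbr1, Ephx1, Txnrd1 and Ugdh), 5 are glutathione transferases (Mgst3, Gstm3, Gsta2, Gsta4 and Gstm2), and Gpx4 is the peroxidase that protects membrane lipids. All 10 lay below their genotype mean in TAKI livers 1 and 3 and in WT liver 1, and all 10 above it in TAKI liver 4 and in WT livers 2, 3 and 4. Nqo1 itself deviated by -0.48, -0.54, -0.51 and 0.57 in TAKI livers 1 and 3, WT liver 1 and TAKI liver 4. Because the 10 were chosen by their r with Nqo1, the shared signs follow in part from that choice. Their mean deviation was 0.55 in TAKI liver 4 and -0.47 in TAKI liver 3, 0.25 in TEKI liver 2 and -0.19 in TEKI liver 3, and 0.34 in WT liver 2 and -0.58 in WT liver 1.

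**Figure D3:**
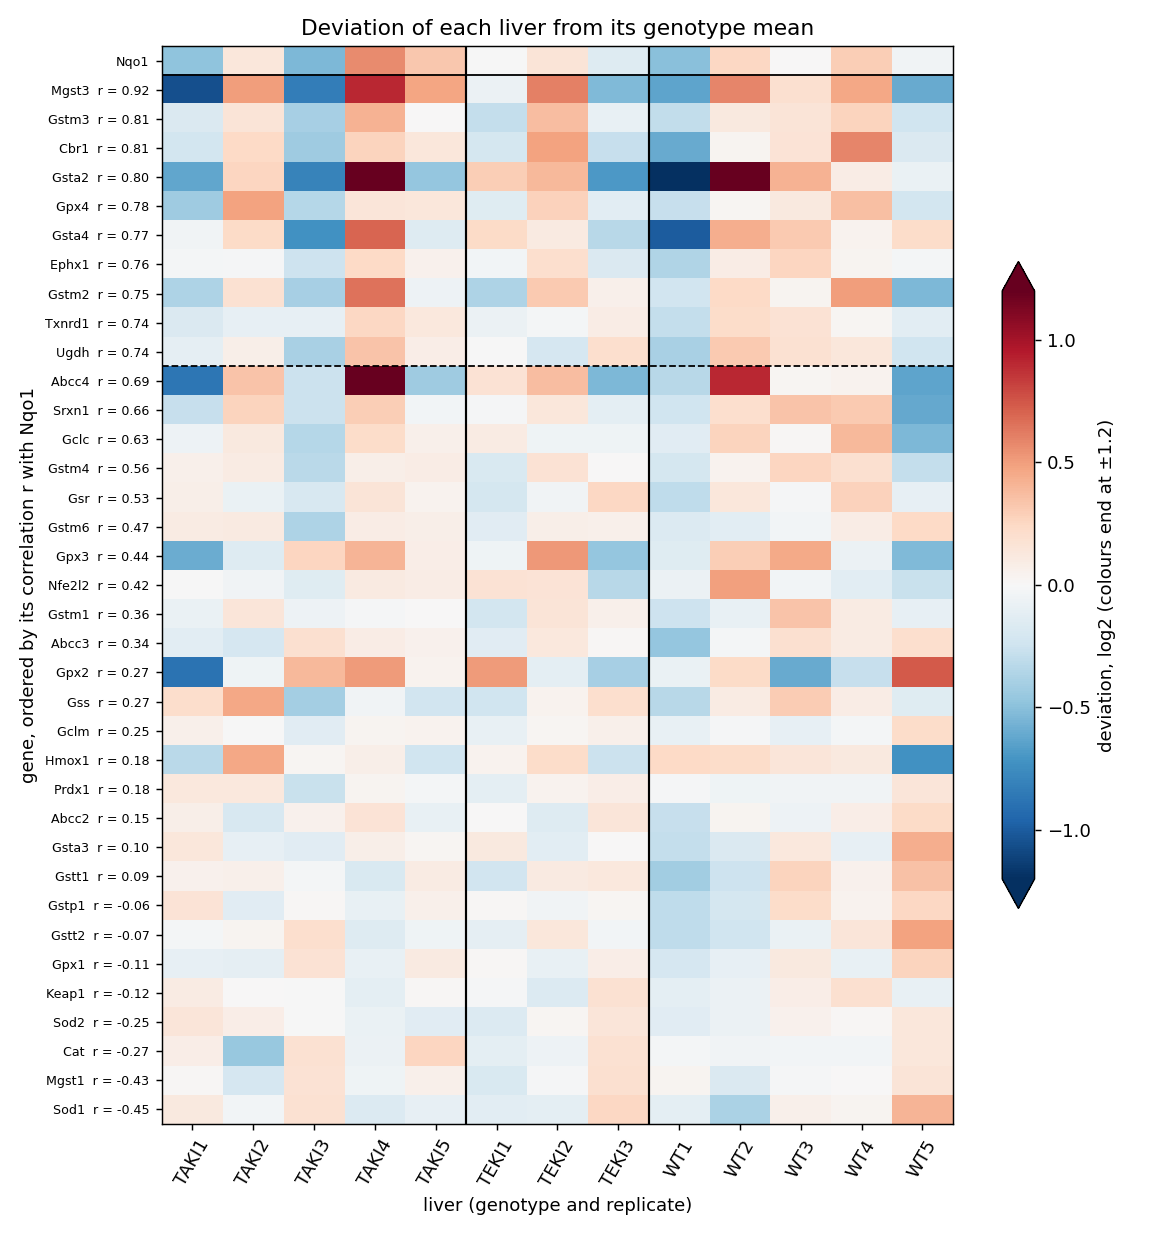
Deviation of each liver from the mean of its genotype in log2 units (red above, blue below, colours ending at ±1.2) for Nqo1 and the 36 other members tested, ordered from top to bottom by their correlation r with Nqo1. Columns are livers, TAKI on the left, then TEKI, then WT. The 10 members between the solid and the dashed line have r of at least 0.7 and share the blue columns of TAKI livers 1 and 3 and WT liver 1. This sharing follows in part from choosing them by r.

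Mgst3 was the member most like Nqo1, with r = 0.92 and rho = 0.89 (two-sided permutation test within genotypes, p = 0.00018 for r and 0.00113 for rho). Without the 2 livers in which Nqo1 was farthest from its median, TAKI liver 4 and WT liver 1, its r was 0.92. For Gstm3 r was 0.81 and rho 0.82 (permutation test, p = 0.00109 and 0.00211), with r = 0.72 without those livers. For Cbr1 r was 0.81 and rho 0.85 (permutation test, p = 0.00073 and 0.00094), with r = 0.77 without them. In the 7 other members of the 10 r ran between 0.74 and 0.80 with all livers and between 0.55 and 0.81 without those 2. Mgst3, Gstm3 and Cbr1 were named for the highest r of the 36 members, and their permutation p-values are not adjusted for that choice. In a limma fit of genotype and Nqo1 level over all genes, none of the 36 members passed the adjusted threshold. The adjusted p was 0.115 for Mgst3, 0.364 for Gstm3 and 0.364 for Cbr1. In the same fit 13 members had a positive slope at an unadjusted p under 0.05, against 4.72% of all genes, which are mostly dimmer. Over 19 alternatives the adjusted p of Mgst3 ran between 0.023 and 0.76, and it passed in 2 of them, at 0.023 with median scaling and 0.036 without WT liver 5.

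Members outside the 10 included several that NRF2 is known to induce. Abcc4 (r = 0.69), Srxn1 (0.66) and Gclc (0.63) came next in order. Hmox1 had r = 0.18, Gclm 0.25 and Prdx1 0.18. Of the regulators, Nfe2l2 had r = 0.42 and Keap1 -0.12. The lowest values were those of Sod1 (-0.45), a cytosolic superoxide dismutase, and Mgst1 (-0.43). Between Nqo1 and the 10 members the 55 pairwise correlations had a median of 0.73 (0.44 to 0.93), against a median of 0.16 over the 325 pairs of the other 26 members, which follows in part from choosing the 10 by their r with Nqo1. Gstm1 is read by 2 probes that disagree: the brighter, saturated on 2 arrays, had r = 0.36 with Nqo1 and the dimmer r = 0.80.

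**Figure D4:**
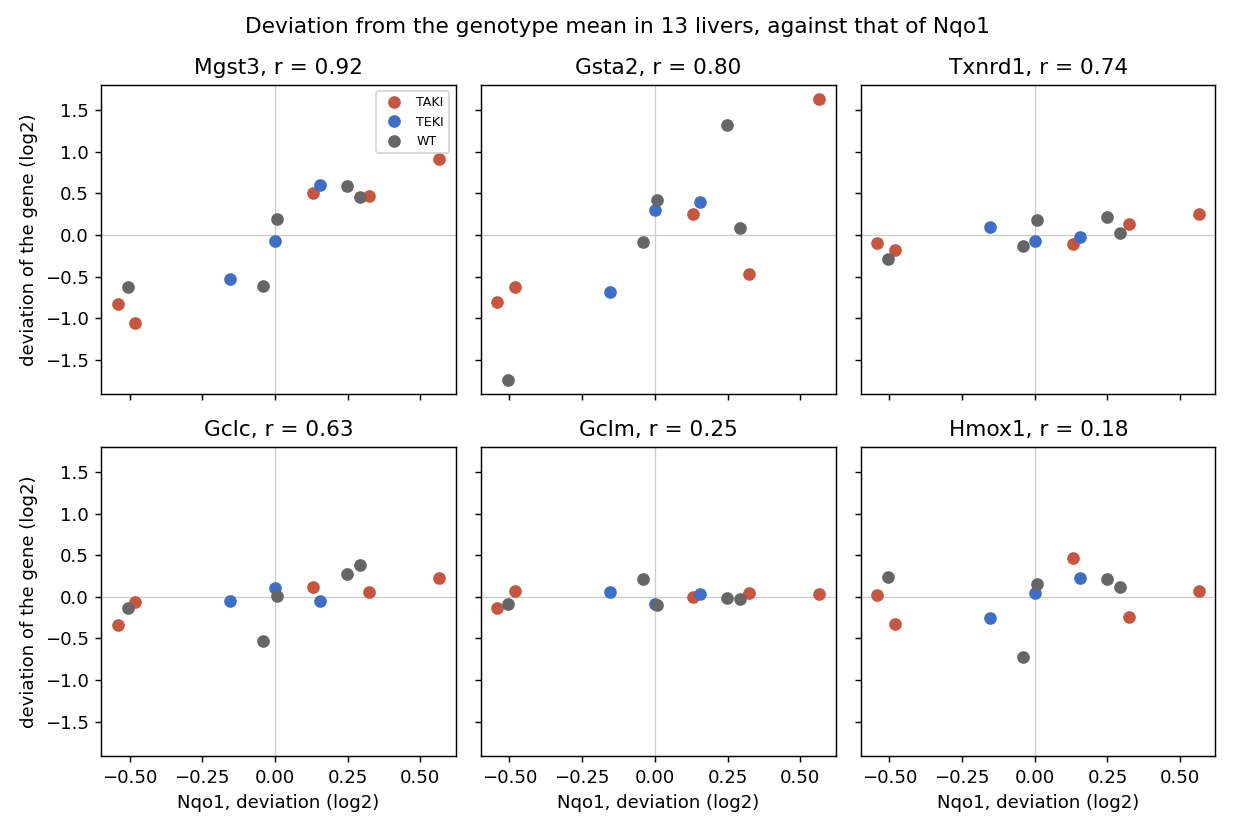
Deviation from the genotype mean in log2 units for 6 members (vertical axes) against that of Nqo1 (horizontal axes), with 1 point per liver for TAKI (red), TEKI (blue) and WT (grey). Mgst3, Gsta2, Txnrd1 and Gclc go up with Nqo1 with r = 0.92, 0.80, 0.74 and 0.63, whereas Gclm and Hmox1 do so with r = 0.25 and 0.18.

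Other measures moved with Nqo1 as well. The log2 of each array's 75th percentile, by which the arrays were scaled, had r = 0.68 with Nqo1 (rho = 0.73, permutation test, p = 0.031 and 0.013; adjusted p = 0.24 for r over 9 such measures), and r = 0.77 without the 2 farthest livers. With it as a further term, 7 of 36 members had r of at least 0.7, against 2.31% of all genes, and r for Mgst3 was 0.86. With slide as a further term, 16 members did, against 5.60% of all genes; each slide alone holds too few arrays for a value within it. The mean of the hepatocyte markers had r = -0.55 with Nqo1 and that of the stellate cell markers r = 0.56, both with an adjusted p of 0.24 in the permutation test over the 9 measures. The mean of the 10 macrophage and Kupffer cell markers had r = 0.13, with single markers on both sides. Above zero were Gpnmb (0.70), Trem2 (0.66), Cd68 (0.33), Cd5l (0.083), Adgre1 (0.081) and Csf1r (0.054). Below zero were Vsig4 (-0.22), Clec4f (-0.38), Marco (-0.49) and Timd4 (-0.59). The log2 summed level of the 6 stellate cell markers ran between 3.10 and 4.88 in TAKI livers, 3.40 and 4.42 in TEKI livers and 3.49 and 4.46 in WT livers, and all 6 were detected above background on all 13 arrays. That of the 9 hepatocyte markers ran between 11.2 and 11.7 in TAKI livers, 11.6 and 12.0 in TEKI livers and 11.4 and 11.8 in WT livers. The part of these measures in the shared deviation was not tested.

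Single arrays weighed on the count: 5 members reached r of 0.7 without TAKI liver 4 and 6 without WT liver 1, against 8 to 13 without any one of the other 11 livers. All 10 are among the 18 members that reached it with median scaling, when 11.7% of all genes did. With normexp background correction 8 members reached it, 7 of them among the 10, against 1.34% of all genes.

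Promoters are shown because NRF2 with a small MAF protein is known to bind antioxidant response elements, whose core was searched as TGACNNNGC on both strands in the RefSeq windows of build GRCm38.p6 (250 bases before to 50 after the start of a gene). Windows were held for 32 of 38 members. The core stood in 11 of the 32 (34.4%), against 14.0% of 27025 genes with a window and 12.4% of 32851 single windows. Of the 9 members with r of at least 0.7 and a window, 2 held it (Txnrd1 and Ugdh), and of the 23 others, Nqo1 among them, 9 did: Nfe2l2, Srxn1, Prdx1, Gclm, Sod1, Gsta3, Mgst1, Abcc2 and Abcc4. The 250 bases before the start follow for the reporter and its closest companion, which hold no match, for Ugdh (r = 0.74), which holds 2, and for Prdx1 (r = 0.18), whose match also contains the AP-1 motif TGACTCA. Capitals mark the matches, read on the strand of the gene, so that a match on the opposite strand appears as its reverse complement. The windows are chr8:107403206-107403455 (minus strand) for Nqo1, chr1:167393842-167394091 (minus) for Mgst3, chr5:65435843-65436092 (minus) for Ugdh and chr4:116685349-116685598 (plus) for Prdx1.
Nqo1: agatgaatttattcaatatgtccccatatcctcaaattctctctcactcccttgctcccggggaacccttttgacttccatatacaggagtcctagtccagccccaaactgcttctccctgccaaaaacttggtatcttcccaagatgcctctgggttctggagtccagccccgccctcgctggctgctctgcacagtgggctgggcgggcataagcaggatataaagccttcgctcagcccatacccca
Mgst3: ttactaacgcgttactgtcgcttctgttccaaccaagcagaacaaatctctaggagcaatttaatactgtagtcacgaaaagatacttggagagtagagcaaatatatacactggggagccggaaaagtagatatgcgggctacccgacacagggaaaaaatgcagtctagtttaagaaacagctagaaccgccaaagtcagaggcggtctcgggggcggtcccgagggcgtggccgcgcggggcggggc
Ugdh: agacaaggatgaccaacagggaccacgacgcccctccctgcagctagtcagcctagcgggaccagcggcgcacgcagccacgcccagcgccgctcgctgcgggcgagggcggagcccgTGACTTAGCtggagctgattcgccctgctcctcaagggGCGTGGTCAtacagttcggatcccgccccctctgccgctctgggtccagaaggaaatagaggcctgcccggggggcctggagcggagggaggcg
Prdx1: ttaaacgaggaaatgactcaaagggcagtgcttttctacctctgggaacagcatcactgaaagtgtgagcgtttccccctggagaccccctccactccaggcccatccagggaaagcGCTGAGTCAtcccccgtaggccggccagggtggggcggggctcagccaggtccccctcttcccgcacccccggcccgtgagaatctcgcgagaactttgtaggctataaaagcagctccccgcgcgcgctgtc
A match describes letters and is not a binding site, and no match says only that these letters are absent from the window.

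Beyond the 38 members, 61 further genes of the pathway were listed, of which 60 were tested (Ggt1 was not), and none passed the adjusted threshold in any comparison. At an unadjusted p under 0.05, the lists below held 1 gene for TAKI minus WT, 1 for TEKI minus WT and 2 for TEKI minus TAKI, or 1.67%, 1.67% and 3.33%, against 14.7%, 11.6% and 12.1% of all genes. The 9 small MAF, BACH and KEAP1 ligase partners differed by -0.33 to 0.070 for TAKI minus WT and by -0.55 to 0.015 for TEKI minus WT. Nfe2l1, the NRF2 relative that controls proteasome genes, was at 4.50, 4.43, 4.69, 4.50 and 4.57 in TAKI livers, 4.65, 4.66 and 4.93 in TEKI livers, and 4.59, 4.79, 4.75, 4.97 and 4.87 in WT livers. Its TAKI minus WT difference was -0.26, and TAKI livers 1, 2, 4 and 5 lay below every WT liver. Sqstm1, the autophagy adaptor p62 that can bind KEAP1, differed by -0.27 for TAKI minus WT and -0.27 for TEKI minus WT. The small MAF genes Maff and Mafk differed by -0.55 for TEKI minus WT and -0.27 for TEKI minus TAKI.

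For NADPH supply (6 of 6 tested), malic enzyme Me1 was 0.36 for TEKI minus WT and 0.27 for TEKI minus TAKI. Taldo1 and G6pdx, of the pentose phosphate pathway, were -0.16 and 0.23 for TAKI minus WT, Pgd was -0.15 for TEKI minus WT and Tkt 0.22 for TEKI minus TAKI. Of the 13 thioredoxin, peroxiredoxin and glutaredoxin genes, the mitochondrial reductase Txnrd2 was 0.23 for TEKI minus WT and 0.30 for TEKI minus TAKI. Extracellular Sod3 was 0.35 for TAKI minus WT and 0.33 for TEKI minus WT, and Txn1 -0.088 for TAKI minus WT and 0.13 for TEKI minus TAKI.

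The 15 other glutathione enzymes tested included Gstk1, at -0.19 for TAKI minus WT and 0.36 for TEKI minus TAKI. Gstm7 was 0.17 for TAKI minus WT and 0.20 for TEKI minus WT, and Gpx8 -0.32 for TEKI minus WT and -0.40 for TEKI minus TAKI. The 6 iron and haem genes were the flattest list, with differences between -0.085 and 0.082 over the 3 comparisons. The ferritin chains Ftl1 and Fth1 were 0.082 and -0.046 for TAKI minus WT, and Ftl1 was -0.085 for TEKI minus TAKI. Blvra, which reduces biliverdin, was 0.079 for TEKI minus WT and 0.066 for TEKI minus TAKI, and the haem transporter Slc48a1 -0.060 for TEKI minus WT. Of the 11 other NRF2-responsive enzymes, Adh7 was -0.23 for TAKI minus WT and -0.24 for TEKI minus WT, Esd -0.10 for TAKI minus WT and 0.23 for TEKI minus TAKI, Osgin1 -0.45 for TEKI minus WT and Cyp2a5 0.37 for TEKI minus TAKI.

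Of these 60 genes, 8 (13.3%) had r of at least 0.7 with Nqo1 across livers, against 1.78% of all genes: Akr1a1, Gsta1, Prdx3, Cbr3, Mgst2, Tkt, Gstm5 and Htatip2, with r between 0.70 and 0.80. Equally bright genes were not compared here either. The signal of Gsta1 may be that of its near copy Gsta2, a member already counted above, so it is not a separate observation. The mitochondrial glutaredoxin Glrx2 alone had r of -0.7 or lower (-0.77), against 2.07% of all genes.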

How the data were processed

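Liver RNA of 13 mice was hybridised to 1-colour Agilent arrays with 45018 spots, of which 43379 are not controls. The deposited intensity values are the processed signals of Agilent Feature Extraction 9.5, background-subtracted by that software per the file headers. The authors' deposited value table holds the same linear intensities, with a largest difference of 0 from the scanner values and therefore no centring or log. Its column medians are 70.1, 73.4, 72.6, 94.5 and 90.5 for TAKI livers 1 to 5, 137, 66.3 and 56.1 for TEKI livers 1 to 3, and 66.1, 72.9, 49.1, 64.8 and 58.0 for WT livers 1 to 5.

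From these, outlier spots were left out, spots of a probe were averaged (41174 probes), and each array's log2 75th percentile was subtracted from its log2 values. Probes were named by accession (22951), current symbol (6659) or synonym (3109), and 8455 kept the name in the files. Of several probes of a gene the brightest was used, and genes well above background on at least 3 arrays were tested. One limma 3.58.1 fit (R 4.3.3) of the 3 genotypes over 13 arrays, with 10 residual degrees of freedom, gave all contrasts, with Benjamini-Hochberg adjustment over 20392 genes and a threshold of 0.05. Confidence intervals are at 95% and come from the moderated statistics of limma. The number of arrays limits the precision. In simulated data, genes changed by 0.5, 1 and 2 log2 units were recovered in 13.4%, 52.2% and 81.8% of cases for TAKI minus WT, with 4 false calls, and in 1.49%, 50.7% and 81.8% for TEKI minus WT, with 5.

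Deviations from genotype means were correlated with those of Nqo1 with 100000 permutations within genotypes, and p-values for likeness were adjusted over all genes, by limma with the Nqo1 level as a covariate, rather than over the members as first planned. Members with values in every liver were Nfe2l2, Keap1, Nqo1, Hmox1, Txnrd1, Srxn1, Gclc and Gclm, the member of smallest p per role and contrast, those whose groups do not overlap, the 5 of largest SD and the 3 most like Nqo1; from each pathway list the 2 genes of smallest p per contrast were named. The members, lists and tests were chosen with earlier results of these data known. Alternatives were other scalings, background corrections and filters, array weights, slide and replicate terms, and each array left out. Python 3.11.15, numpy 2.4.6, pandas 2.3.3, scipy 1.17.1 and matplotlib 3.10.9 were used. The single-gene result of 1 lymphocyte marker is not reported here.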

Additional observations from a re-analysis of the deposited data

Results flagged for a closer look

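In 7 of 74 groups of 5 livers (37 members, TAKI and WT), 1 liver lay far from the other 4 by Dixon's criterion. For a single group, chance meets this criterion in about 1 of 20 cases. The 74 groups read the same livers and are not independent, and the share over all genes is not given here. The count therefore does not show more outliers than chance. Of the 7 groups, 4 concerned WT liver 5, the only WT array on the slide of the TEKI arrays. Hmox1 was at 2.18 in WT liver 5, against 3.02 to 3.14 in the other WT livers. Prdx1 was at 6.73 there, against 6.55 to 6.58. Gclm was at 1.70 in the same liver, against 1.38 to 1.47, and Cat at 6.99, against 6.80 to 6.82. Gsta4 was at 0.23 in WT liver 1, against 1.27 to 1.66 in the other WT livers. In TAKI liver 3, Gstm4 was at 1.80, against 2.19 to 2.23 in the other TAKI livers, and Gstm6 at 2.30, against 2.75 to 2.78.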

How the results depend on the processing

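The number of genes past the threshold moved most. For TAKI minus WT, 575 genes passed (383 higher, 192 lower), against 999 with median scaling (579 higher, 420 lower), 880 with quantile normalization (526 higher, 354 lower), 254 when a probe had to be well above background on all 13 arrays, 1333 with only the groups compared, 2311 with array weights, 316 with the row trend removed, and 295 to 1312 with each array left out. With normexp background correction the split was 167 higher and 484 lower. The lowest count was without TAKI liver 5, with 348 without WT liver 2, 353 without TAKI liver 3 and 375 without TAKI liver 4, and the highest without TEKI liver 1. For TEKI minus WT, 1 gene passed, against 2 with median scaling, without a filter on dim probes and with array weights, 5 with quantile normalization, 0 with normexp, with the all-array filter, with slide as a fixed block and on slide 3 alone, and 1 to 93 with each array left out (93 without TEKI liver 2, 17 without WT liver 5, 4 without TEKI liver 3, 3 without TEKI liver 1). For TEKI minus TAKI, 704 genes passed (505 higher, 199 lower), against 1122 with quantile normalization (490 higher, 632 lower), 4187 with normexp (4017 higher, 170 lower), 296 with the all-array filter, and 408 (without TEKI liver 3) to 1099 (without TEKI liver 1); median scaling gave 521 higher and 503 lower.

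No member passed by limma in any comparison, where an unadjusted p under 0.05 was reached by 2 for TAKI minus WT, by 3 for TEKI minus WT and by 2 for TEKI minus TAKI. Exceptions were 2 members with array weights for TAKI minus WT (Keap1 and Cat) and 1 with normexp for TEKI minus TAKI (Gpx2); the count was 0 to 0 with each array left out. Median scaling shifted all genes by -0.15, -0.36 and -0.21 in the same order, and the median of the members to -0.22, -0.47 and -0.19. With each array left out, that median was -0.16 to -0.05, -0.12 to -0.0040 and 0.03 to 0.11.

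In the fit on Nqo1, 1 gene passed, against 8 with median scaling, 0 with normexp or the row trend removed and 0 to 3 with each array left out. Of the members 0 passed, against 1 with median scaling and 0 to 1 with each array left out. Members with r of at least 0.7 numbered 10, against 18 with median scaling, 16 with slide as a fixed term and 5 to 13 with each array left out. The median SD of the members was 0.22, against 0.40 with median scaling (0.38 over all genes) and 0.21 to 0.24 with each array left out. The settings of slide, 75th percentile, row trend and replicate for likeness, and all those for the SD, were chosen after seeing the data. The causes of these shifts were not tested.

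Whether replicate numbers pair the livers was not tested. The 11 pairs of the same number had correlations of -0.23 to 0.32 (median 0.098), 5 of them above 0.1. The 44 pairs of different number had correlations of -0.44 to 0.43 (median -0.024), 11 of them above 0.1. With a replicate block, 343 genes passed for TAKI minus WT and 0 in the fit on Nqo1, and the block changed the call of no member.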
